A study of Caenorhabditis elegans with 2 samples.

Results

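The regions described here are the reproducible binding regions of a GFP-tagged transcription factor on the X chromosome of Caenorhabditis elegans, away from the gene mdl-1. They were all rows of the deposited list of reproducible regions in build ce11 that lie on chromosome X, without those whose summit lay closer than 50 kb to the start of mdl-1. The rule gave 250 of the 994 regions outside the mdl-1 locus. The other 744 lay on the 5 autosomes and served as the comparison, and a further 21 around mdl-1 were left out. The left-out group ended well inside the limit. Its farthest summit lay 13231 bp from the start of mdl-1, while the nearest retained one lay 99269 bp to its left, by nhr-120, with the next at 160903 bp to its right by sid-5 and 293068 bp to its left by fah-1.

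Chromatin immunoprecipitation with sequencing (ChIP-seq) was done on whole L3 larvae of mixed sex, in 2 biological replicates of strain OP355, genotype unc-119(tm4063) III with the integrated transgene wgIs355. There was no other strain, stage or treatment, so every comparison below is between sets of regions. The antibody and strain labels give mdl-1 as the target and the free-text description gives ZK337.2 (klu-1), so the protein is called the tagged factor. The sources used here do not give the promoter or the cells that express the transgene, and strong binding in few cells cannot be told apart from weak binding in many. Each region carries the authors' signal value, a peak caller score of unstated scale, used here only to rank and describe regions.

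MDL-1 is the worm relative of Mad, and proteins of the Myc, Mad and Max family bind the E-box CACGTG. The X chromosome of C. elegans is under dosage compensation: in hermaphrodites a condensin-containing complex binds both X chromosomes and lowers their transcription. That complex is loaded at sites on X that carry a sequence known as the X motif, whose most constant part is GCGCAGGG. GA repeats are common in worm promoters, and transfer RNA genes, many of which lie on X, are transcribed by RNA polymerase III.

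Of the motifs searched, GCGCAGGG differed most in fold between X and autosomal regions among those that passed the test, although few X regions hold it. The copies within 100 bp of a summit on X are shown for that reason. There were 16 such copies in 12 of the 250 regions, read here from the RefSeq assembly WBcel235, which is ce11. Each is named by the gene with the nearest protein-coding 5′ end, which need not be the gene that holds it. The region named for C41A3.2 was exonic but 15189 bp upstream of that 5′ end. The one named for cest-16 was intronic but 3348 bp upstream, so both lay in other genes. Each is printed 5′ to 3′ on the strand that reads GCGCAGGG, which is in capitals.

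W02H3.3 first copy (chrX:11094114-11094143, minus strand): cgttttatatcGCGCAGGGagcttatgcat
W02H3.3 second copy (chrX:11094215-11094244, minus strand): gggaaccattcGCGCAGGGacacctcactg
nspc-17 (chrX:14525889-14525918, minus strand): tattgcctatcGCGCAGGGacagatgtggt
Y41G9A.17 (chrX:2997112-2997141, minus strand): ttaaatttatcGCGCAGGGaggaagtagcc
cest-16 first copy (chrX:6296537-6296566, plus strand): atttacatttgGCGCAGGGggtcaccatag
cest-16 second copy (chrX:6296565-6296594, plus strand): agataggtatcGCGCAGGGaagatttaccg
xol-1 first copy (chrX:8036390-8036419, minus strand): aattttttatcGCGCAGGGacgtatgtcga
xol-1 second copy (chrX:8036424-8036453, plus strand): atttttccatcGCGCAGGGaacccttcgat
C41A3.2 (chrX:5429579-5429608, plus strand): cattaaatttaGCGCAGGGaggacgccgtt
gtr-1 first copy (chrX:806663-806692, plus strand): gtgcgattatcGCGCAGGGgtgtttgttgc
gtr-1 second copy (chrX:806739-806768, plus strand): taaaccgatacGCGCAGGGaaaaaaaaata
ins-39 (chrX:1345045-1345074, plus strand): caatgtcattcGCGCAGGGcagctgagccc
F22H10.2 (chrX:16682161-16682190, minus strand): aagaaaacatcGCGCAGGGaacatcaaatt
F20B6.9 (chrX:4209255-4209284, minus strand): ttgccgctatcGCGCAGGGacacctctttc
T24D8.6 (chrX:2364888-2364917, minus strand): aaaataattaaGCGCAGGGatatatagtac
col-185 (chrX:13514547-13514576, plus strand): atacctttatcGCGCAGGGatattgaaatc

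The X regions of highest signal do not carry that core, and 5 of the highest 20 carry an E-box. Their 36 bases around the copy nearest the summit are shown on the plus strand, with CACGTG in capitals.

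bcat-1 (chrX:12872506-12872541): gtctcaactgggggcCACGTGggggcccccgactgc
C36E6.2 (chrX:17451568-17451603): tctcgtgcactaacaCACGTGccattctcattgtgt
F09A5.3 (chrX:13145347-13145382): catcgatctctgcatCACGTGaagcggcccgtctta
bet-2 (chrX:10568587-10568622): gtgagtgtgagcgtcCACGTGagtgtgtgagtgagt
mans-3 (chrX:5165163-5165198): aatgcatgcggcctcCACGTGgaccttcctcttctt

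The region of highest signal, upstream of epn-1, has no CACGTG within 100 bp of its summit. The 121 bases centred on its summit are shown on the plus strand, where capitals mark CGCGTG, the reverse complement of the variant E-box CACGCG, and GACGCAG, the reverse complement of CTGCGTC.

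epn-1 (chrX:14818933-14819053): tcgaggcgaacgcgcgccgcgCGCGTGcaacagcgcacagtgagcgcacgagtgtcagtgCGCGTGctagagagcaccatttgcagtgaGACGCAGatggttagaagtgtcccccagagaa

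The first comparison asked whether reproducible regions fell on X more often than its size predicts. They did so relative to both length and gene number. Leaving out the regions around mdl-1, X held 250 of 994 regions, or 25.2% (95% exact interval 22.5 to 28%), against 17.6% of the chromosome length and 13.6% of the protein-coding genes. This amounted to 14.2 regions per Mb on X and 9.01 on the autosomes, although X carries fewer protein-coding genes per Mb, 154 against 209. The share was also seen in each replicate alone, at 25.6% for replicate 1 and 24.2% for replicate 2, when the top of each replicate's list was cut to as many regions as the reproducible list holds. It was lower among weaker regions. In the pooled list, which the authors called from both replicates, X held 24.7% of ranks 1016 to 3000, 20.2% from there to rank 10000 and 19% from there to rank 30000.

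**Figure D1:**
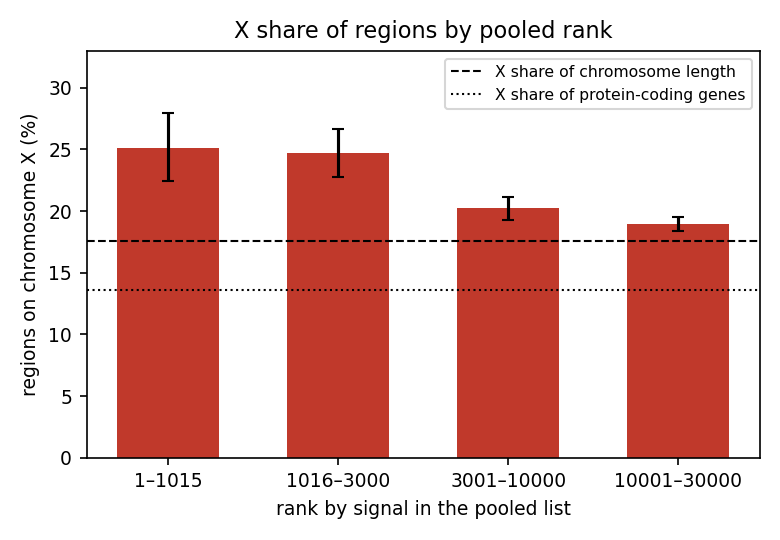
Share of regions that lie on chromosome X (vertical axis, %) by rank in the pooled list (horizontal axis), leaving out regions within 50 kb of mdl-1. Bars are shares with 95% exact intervals and lines mark the X share of chromosome length (17.6%) and of protein-coding genes (13.6%); the share falls from 25.2% in the first bin, which is the reproducible list, to 19% in the last.

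Counted by gene, the same direction was found. The promoter window of a protein-coding gene ran from 1000 bp before its 5′ end to 200 bp past it. On X, 108 of 2713 such genes (3.98%) had a summit in that window, against 394 of 17242 autosomal genes (2.29%; two-sided Fisher's exact p = 8.83e-07). The difference was 1.70 percentage points (95% interval 0.983 to 2.53). The 108 X genes rested on 102 regions, since 9 regions lay in more than 1 window.

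Where regions lay relative to genes did not differ detectably between X and the autosomes. On X 102 summits (40.8%) lay in a promoter window, 64 (25.6%) in an intron, 5 (2.00%) in an exon and 79 (31.6%) in intergenic sequence. The autosomal shares were 42.6%, 26.2%, 3.23% and 28%, and the adjusted p-values of the 4 Fisher's exact tests ran from 0.780 to 0.868. The widest of the intervals, for promoter windows, ran from −8.72 to 5.30 percentage points. The summit lay upstream of the nearest 5′ end in 64.8% of X regions and 65.3% of autosomal ones (exact p = 0.878, interval of the difference −7.48 to 6.12 points). The median distance to the nearest 5′ end was 1244 bp on X and 1091 bp on the autosomes, and 24 X regions (9.60%) and 102 autosomal ones (13.7%) were over 5000 bp from any, a difference that was not tested.

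Along the chromosome, X regions lacked the central concentration seen on the autosomes, whose middles are known to be rich in genes. With each chromosome cut into 3 equal parts, the middle part of X held 83 regions (33.2%), and those of the autosomes held 350 (47%; Fisher's exact p = 0.000126, difference −13.8 points, interval −20.4 to −6.82). Protein-coding 5′ ends were less unequal, with 35.7% in the middle part on X and 38.1% on the autosomes. From left to right the 3 parts of X held 70, 83 and 97 regions, or 11.9, 14.1 and 16.4 per Mb.

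**Figure D2:**
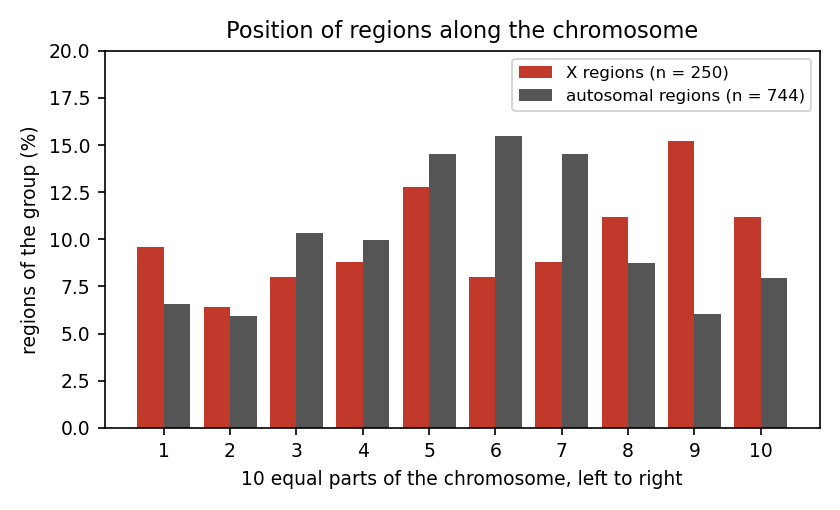
Share of the 250 X regions (red) and of the 744 autosomal regions (grey) in each of 10 equal parts of the chromosome, left to right (horizontal axis; vertical axis, % of the group, with no error bars). The autosomal shares are highest in parts 5 to 7, between 14.5% and 15.5%, and the highest X share is 15.2%, in part 9.

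Regions on X stood apart from each other somewhat more than autosomal ones, but this depended on the distance chosen. Another reproducible summit lay within 10 kb of 36.4% of X summits and 44.5% of autosomal summits (exact p = 0.0266). At 5 kb (31.2% and 36.2%, exact p = 0.168) and at 20 kb (47.6% and 53.6%, exact p = 0.108) the difference did not pass 0.05, nor did it in either replicate alone. Chaining summits within 5 kb left 172 single summits, 22 pairs, 6 groups of 3 and 4 groups of 4. The longest stretch of X with no summit was 523 kb.

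The 4 groups of 4 lay nearest to ZK470.4, lin-14, nhr-3 and H18N23.2. In lin-14, a heterochronic gene whose protein sets larval timing (chrX:11465560-11485871, plus strand), all 4 summits were in introns, 1892 to 7836 bp past the 5′ end. Their signals were 61.4, 50.9, 33.9 and 27.1, and the last was not in the replicate 1 list. At nhr-3, a nuclear hormone receptor gene (chrX:14558504-14561432, plus strand), 2 summits lay 966 and 319 bp upstream, 1 in an intron and 1 beyond the gene, with the intronic one highest at 89.3. At H18N23.2 all 4 signals were between 32.9 and 47.7, and 2 of these regions, at 34.7 and 32.9, were not in the replicate 1 list. The summits nearest to ZK470.4 spanned 7245 bp, all in introns but outside that gene itself (chrX:4139516-4139767, minus strand). Of these summits 2, at 87.3 and 85.3, were well above the others at 32.3 and 35.9. The one at 35.9 was not in the replicate 1 list.

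Signal itself ran from 25.9 to 313 on X, with a median of 40.3, and from 25.9 to 327 on the autosomes, with a median of 38.9. The share above the median of the whole list was 51.6% on X and 48.4% on the autosomes (exact p = 0.382, interval of the difference −3.93 to 10.3 points). Replicate 2 alone gave a difference that passed 0.05, with 54.8% and 47.1% (exact p = 0.0455), as did the 507 regions of highest signal, with 57.4% and 46.1% (exact p = 0.0313), each taken against the median of its own list.

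The replicates did not list the X regions equally. All 250 were in the replicate 2 list and 227 (90.8%) in that of replicate 1, which was shorter (15898 against 30000 regions). In the top lists of the replicates, each as long as the reproducible list, 138 X regions were in both, 77 in replicate 2 alone, 23 in replicate 1 alone and 12 in neither. The autosomal shares were close to those on X, with 90.1% in the replicate 1 list, 99.5% in the replicate 2 list, 63.2% (X 64.4%) in the top list of replicate 1 and 85.8% (X 86%) in that of replicate 2. All 4 adjusted p-values were 1. Across the 250 X regions, which share both libraries and enter at 0 where unlisted, the signals of the replicates had a Spearman's rho of 0.517 and a Pearson's r of 0.772. This describes 1 pair of libraries, and the list was itself chosen with both.

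**Figure D3:**
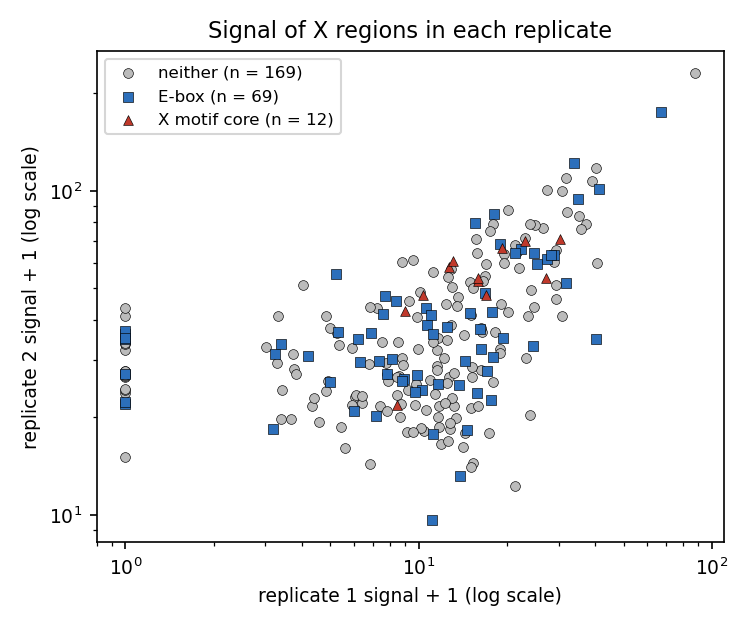
Signal of each of the 250 X regions in replicate 1 (horizontal) and replicate 2 (vertical), both as the peak caller score plus 1 on log scales. The 23 points at the left edge are not in the replicate 1 list; the 12 regions with GCGCAGGG (triangles) lie within the cloud, with replicate 2 signals from 20.8 to 70.3.

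The 20 X regions of highest signal were within the first 84 of the whole list, within the first 221 of replicate 1 and within the first 145 of replicate 2. Of these 20, 14 lay in promoter windows, 4 were intergenic and 2 intronic. A CACGTG lay within 100 bp of the summit in 5, the variant CACGCG in 11, and at least one of them in 15.

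The highest of all lay 479 bp upstream of epn-1, an epsin homologue that acts in clathrin-mediated endocytosis (chrX:14815798-14818514, minus strand). Its signal was 313 in the reproducible list, 86.7 in replicate 1 and 230.1 in replicate 2, the order kept for the values below, and it ranked 4 and 6 in the replicates. The next was intergenic, 4996 bp upstream of bcat-1, a branched-chain amino acid aminotransferase gene, at 240.3, 65.9 and 174. It held the E-box shown above. The third lay 83 bp upstream of C36E6.2, at 161, 33 and 121.

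Regions next in signal included those nearest to aak-2, puf-9 and bet-2. An intronic region 969 bp into aak-2, a catalytic subunit of AMP-activated kinase (chrX:16796087-16803398, plus strand), had signals of 152, 39.4 and 117. The region 288 bp upstream of puf-9, a Pumilio-family RNA-binding protein gene (chrX:5841592-5845987, plus strand), had signals of 140.3, 30.8 and 109. The bromodomain gene bet-2 (chrX:10569273-10575725, plus strand) had 2 summits, 652 and 438 bp upstream, at 127 and 70.1. The one with the higher signal holds the E-box shown above.

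The intron of F09A5.3 held a region that also lay in the promoter windows of microRNA genes. Its summit lay 266 bp upstream of the annotated start of mir-54 and within 1000 bp of mir-55 and mir-56, on the opposite strand to the host gene. Signals were 143, 40.2 and 100.7. A second summit 828 bp away, at 94.4, lay 298 bp upstream of mir-55b. These 4 were the X microRNA genes with a summit in the promoter window, of 74 on X (5.41%), against 15 of 187 on the autosomes (8.02%; Fisher's exact p = 0.601). This comparison was added to those planned. As the 4 microRNA genes share 2 summits they are not separate observations.

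At eef-1A.2, a translation elongation factor gene (chrX:7823654-7825769, plus strand), a summit lay 403 bp upstream with signals of 125, 29.9 and 99.0. Between the divergent genes rab-14, a Rab GTPase of membrane traffic, and nipi-3, a Tribbles-like kinase gene of the innate immune response, there were 2 summits 590 bp apart. The one nearer rab-14 had signals of 104.4, 39.7 and 58.7, and the one nearer nipi-3 had 115, 36.2 and 78.2. The order of the 2 regions differed between the replicates. Other genes nearest to a region among the 20 were tatn-1, a tyrosine aminotransferase gene (109), ain-1, a GW182-family component of microRNA silencing (107), and sma-9, a Schnurri homologue of the TGF-beta pathway (96.2, at 2959 bp upstream). The remaining ones were C30E1.4 (141), serp-1.1 (117), K02A6.3 (117), pigx-1 (106), F17H10.1 (100.3), C09B7.2 (100.3) and mans-3 (96.1).

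The 3 members of lowest signal were at nhr-40, T22B7.3 and snx-1, all between 25.9 and 26. The region at snx-1 ranked 3272 in replicate 1 and 966 in replicate 2, that at T22B7.3 ranked 390 and 2732, and that at nhr-40 ranked 4189 and 1289.

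Among gene groups, membrane traffic and nuclear receptor genes gave the most X members with a promoter summit, and 15 of the 25 lists gave none. All counts are to be read against the 3.98% of all X genes, with no test of a list. Of 27 nuclear hormone receptor genes on X 6 had a summit (22.2%), against 9 of 247 on the autosomes (3.64%). They were nhr-1 (89.7), nhr-48 (83.7), nhr-32 (82.0), nhr-35 (42.5), nhr-14 (39.6) and nhr-3 (29.3). Of 25 endocytosis and membrane traffic genes 5 had one (20%; autosomes 8.26%). Besides epn-1 and rab-14 these were dpy-23, the medium subunit of the AP-2 adaptor (64.5), sec-15 of the exocyst (50.9) and the sorting nexin gene snx-1 (25.9).

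Of 13 autophagy, lysosome and vacuolar ATPase genes 3 had a summit (23.1%; autosomes 9.52%), at epg-7 (61.4), lmp-1 (29.6) and the V-ATPase subunit gene vha-12 (29.6). Of 5 chaperone genes 2 did (autosomes 9.52%), at the endoplasmic reticulum Hsp70 gene hsp-3 (49.9) and at dnj-14 (31.0). Single members were found for the insulin-like peptides (ins-39, 1 of 2), muscle structure (act-4, 1 of 14), zinc finger and other transcription factors (atf-4, 1 of 23), lipid metabolism (acl-1, 1 of 24), respiration and the TCA cycle (sdha-1, 1 of 9) and signalling kinases and phosphatases (kin-29, 1 of 23). The autosomal shares of these lists, in the same order, were 0%, 0%, 1.30%, 2.27%, 12.5% and 3.64%.

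The lists with no X gene that had a promoter summit were mostly small or also low on the autosomes. The largest of them were 47 G protein coupled receptors for neurotransmitters and peptides, 33 neuropeptide genes, 33 chemoreceptors, 30 cuticle collagens, 26 homeobox genes, 26 ligand-gated channels, 25 ubiquitin and proteasome genes, 20 matrix and adhesion genes and 18 potassium channels. A count of 0 of 47 allows a share of up to 7.55%, and 0 of 33 up to 10.6%, so that both allow the 3.98% of all X genes. On the autosomes these 9 lists had shares from 0 to 1.49%, with 1 of 80 for the G protein coupled receptors and 0 of 71 for the neuropeptides. The list of X counting and dosage compensation genes had 0 of 6 (autosomes 0 of 8), the helix-loop-helix genes 0 of 7 (autosomes 3.70%), Wnt, Notch, TGF-beta and Ras signalling 0 of 12 (autosomes 2.17%) and the Myc/Mondo network 0 of 1 (autosomes 0 of 4). The heterochronic genes had 0 of 4 on X and 2 of 10 on the autosomes (20%), and the ribosomal proteins 0 of 2 and 15 of 80 (18.8%). A count of 0 of 4 allows a share of up to 60.2%, and 0 of 2 up to 84.2%.

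Sequence at the summits was compared next, to ask which motifs mark X regions and which differ from the autosomes. Each of 26 motifs was searched on both strands within 100 bp of the summit and, as flank, in an equally long window centred 500 bp to one side. On X, 8 motifs (30.8%) were more frequent at summits than in flanks and 4 (15.4%) less frequent (exact McNemar test, adjusted over 26). CACGTG was in 69 X regions (27.6%) and 7 flanks (2.80%; exact test, adjusted p = 4.62e-15). GAGAGA was in 50% and 7.6% (exact test, adjusted p = 1.01e-23), CACGCG in 20.4% and 2.00% (exact test, adjusted p = 9.04e-11), and CTGCGTC in 14% and 0.8% (exact test, adjusted p = 6.66e-08). CATGTG, CTGCGTCTC, GCGCAGGG and GGCGGG were the others that were more frequent. The TATA box TATAAA, the homeodomain site TAATTA, the splice acceptor TTTTCAG and the heat shock site GAANNTTC were less frequent at summits. These 4 are richer in A and T than in G and C. The median share of G and C in the summit windows was 47.3% on X and 45.8% on the autosomes. It was not measured in the flanks, so the part of base composition in these differences was not tested.

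For scale, in the 201 bases upstream of the 5′ ends of all 19973 protein-coding genes the motifs were found at 4.23% for CACGTG, 3.41% for CACGCG, 16.3% for GAGAGA, 3.25% for CTGCGTC, 2.34% for CTGCGTCTC and 0.0551% for GCGCAGGG. CTGCGTCTC contains CTGCGTC, and TCACGTGA contains CACGTG, so these counts are nested. Of the 250 X regions, 51 held no E-box, no CACGCG variant, no GAGAGA repeat, no CTGCGTC and no X motif core.

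Between X and autosomes 1 motif of the panel (3.85%) was more frequent on X and 3 (11.5%) less frequent. The panel was chosen with earlier results of these data known, so its adjusted p-values are not those of a list set in advance. GCGCAGGG was in 12 X regions (4.80%, exact interval 2.5 to 8.23) and in 1 of 744 autosomal regions (0.134%, interval 0.00340 to 0.747; Fisher's exact test, adjusted p = 1.37e-05). Those lower on X were CTGCGTCTC, with 10% against 22% (exact test, adjusted p = 0.000203), CTGCGTC, with 14% against 26.1% (exact test, adjusted p = 0.000526), and GAGAGA, with 50% against 60.9% (exact test, adjusted p = 0.0195). In the flanks 0 of the 26 passed. Within promoter windows, where 102 X regions remained, none of these 4 motifs passed (GCGCAGGG 1.96% on X and 0% on autosomes, CTGCGTCTC 7.84% and 20.5%, GAGAGA 52% and 54.6%), and among the 507 regions of highest signal GAGAGA and CTGCGTC did not.

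By chromosome, CTGCGTCTC ran from 18.5% on V to 26.5% on IV, all above the 10% of X. GAGAGA ran from 50.3% on V to 67.2% on I, so that V was close to X. Among regions that lacked CTGCGTC, the repeat GAGAGA was in 48.8% on X and 54.9% on the autosomes, a difference that did not pass 0.05 (exact p = 0.147, chosen after the data were seen).

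The E-box itself did not differ detectably. CACGTG was in 27.6% of X and 29.8% of autosomal regions (exact test, adjusted p = 0.753, interval of the difference −8.42 to 4.42 points). The variant CACGCG was in 20.4% and 14.1% (exact test, adjusted p = 0.108). On X the nearest CACGTG lay a median of 20.5 bp from the summit, and within 25 bp in 39 of 69 regions. X regions with CACGTG held GAGAGA in 47.8% of cases and those without it in 50.8% (exact p = 0.777). They were above the X median of signal in 52.2% and 49.2% of cases (exact p = 0.777), with an interval of the difference from −10.7 to 16.4 points. A CACGTG occurred at least at 2 places in 7 X regions, of which 2 were in the H18N23.2 group.

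**Figure D4:**
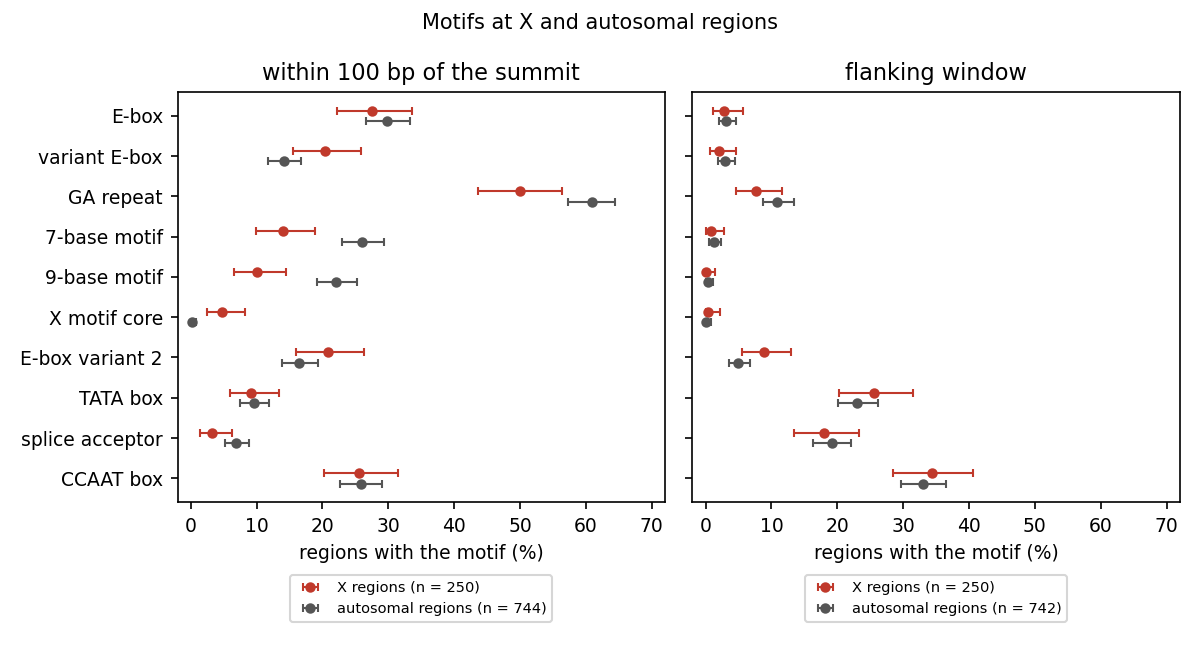
Share of regions with each of 10 motifs (horizontal axis, %, 95% exact intervals) within 100 bp of the summit (left) and in flanking windows (right), for X (red) and autosomal (grey) regions. The X motif core, GCGCAGGG, is at 4.80% on X and 0.134% on autosomes, the 7-base motif, CTGCGTC, at 14% and 26.1%, and in the flanks these 2 motifs are at 0.4% and 0.135%, and at 0.8% and 1.21%. The flanking shares of the E-box variant CATGTG are further apart, at 8.8% on X and 4.99% on autosomes.

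A scan of all 2080 6-mers, with reverse complements merged, gave 3 (0.144%) more frequent at X summits and 6 (0.288%) less frequent, and 0 in either direction in flanks (Fisher's exact tests, adjusted over 2080). The highest on X by p was CTGCGC, the reverse complement of GCGCAG in the X motif core, in 16.4% of X and 7.12% of autosomal regions (exact test, adjusted p = 0.0216). It was in 41 X regions, whereas the whole core was in 12, so most of its copies were outside the core. The others higher on X, CGGCAA (13.2% and 5.11%) and AGGCAG (14.8% and 6.32%), are not part of the core. Of those lower on X, CGTCTC was in 25.6% and 41.5% (exact test, adjusted p = 0.0115). It, AGACGC and GACGCA lie within CTGCGTCTC or its reverse complement, and CGCAGA and AGAGAC overlap an end of the latter. The remaining one was AAATTG. These calls were fragile. With the top list of replicate 1 in place of the reproducible list 0 and 0 passed, and with that of replicate 2 there were 0 and 2.

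The 12 regions with GCGCAGGG are described next. Their signals ran from 28.1 to 93.9, with a median of 67.0, against a median of 39.4 for the other X regions, and 11 of the 12 were above the X median. Of the 12, 11 were in the top lists of both replicates, against 55.2% of all X regions. CACGTG was in 0 of them, GAGAGA in 1 and CTGCGTC in 1, against 27.6%, 50% and 14% of all X regions. Only 2, at nspc-17 and ins-39, lay in promoter windows, against 40.8% of all X regions. Another 7 were intergenic (all X regions 31.6%), 2 intronic and 1 exonic. The nearest neighbouring summit of any was 12955 bp away or more. These are descriptions of a set named by its sequence, with no test beyond that of the motif's frequency.

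The highest of these was an intergenic region by W02H3.3, with 2 copies of the core and signals of 93.9, 29.5 in replicate 1 and 70.3 in replicate 2. The region by nspc-17 had signals of 89.4, 22 and 69.3, and the intronic one by Y41G9A.17 had 85, 18.3 and 65.7. An intergenic region 4878 bp upstream of xol-1, the switch gene of sex determination, which is itself on X (chrX:8041313-8044409, plus strand), had signals of 72.8, 11.7 and 57.2. It holds 2 cores in opposite orientation, both shown above, and lies 250 bp from a tRNA gene. The lowest was the region by col-185, at 28.1, 7.45 and 20.8.

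Copies of GCGCAGGG across the genome were then counted, a comparison added after the data were seen. X has 81 copies (4.57 per Mb) and the autosomes 233 (2.82 per Mb). On X 16 of the 81 (19.8%, interval 11.7 to 30.1) were within 100 bp of a reproducible summit, against 1 of 233 on the autosomes (0.429%, interval 0.0109 to 2.37; Fisher's exact p = 1.57e-09). The 16 copies lie in 12 regions and are not independent. The autosomal copy was on chromosome I. In the longer pooled list 31 of 81 X copies (38.3%) and 18 of 233 autosomal copies (7.73%) were at a summit.

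The bases next to the core differed between copies, a pattern noticed in these sequences and so given as counts without p-values. TC came directly before the core in 12 of the 16 X copies at a summit, in 7 of the other 65 X copies and in 6 of the 233 autosomal copies. Thus 12 of the 19 X copies with TC before the core were at a reproducible summit, against 0 of the 6 on the autosomes. The first base after the core was A in 13 of the 16, in 21 of the 65 and in 79 of the 233.

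**Figure D5:**
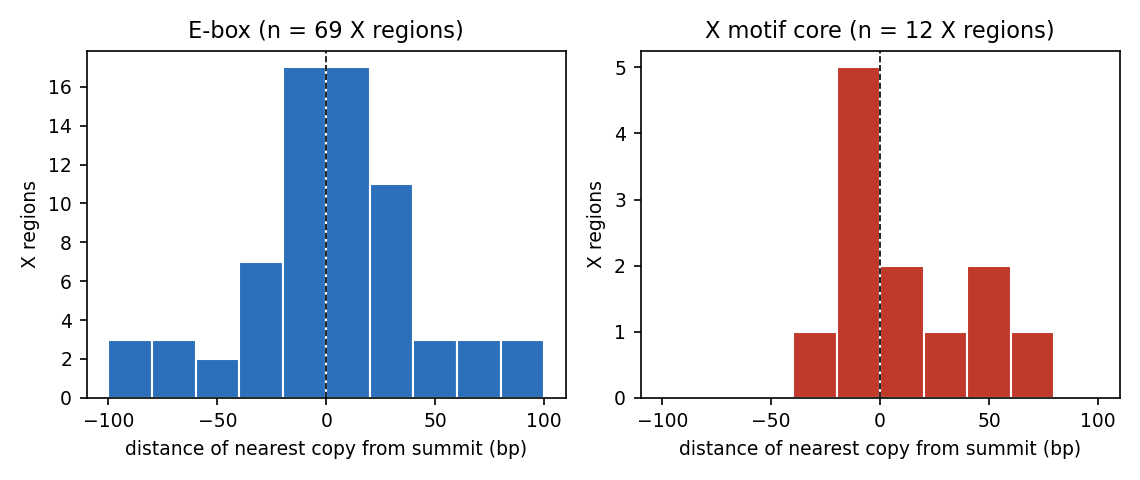
Distance from the summit to the nearest copy of the E-box in 69 X regions (left) and of the X motif core in 12 X regions (right), in bp along the plus strand, in bins of 20 bp; the vertical axis counts regions. Both are gathered at the summit, with a median absolute distance of 20.5 bp for the E-box and 14.5 bp for the X motif core.

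Transfer RNA genes were the last feature in which X regions differed. A tRNA gene lay within 200 bp of the summit in 12 X regions (4.80%) and 4 autosomal regions (0.538%; Fisher's exact p = 3.47e-05). X also holds many of the tRNA genes, 276 against 336 on the autosomes. Counted per tRNA gene, a comparison added after the data were seen, 14 of 276 on X (5.07%) and 5 of 336 on autosomes (1.49%) had a summit (exact p = 0.0170). These genes share summits, 14 of them resting on 12 regions on X and 5 on 4 on the autosomes, so they are not independent. These regions were of low to middling signal, from 26.6 to 50.9 with a median of 35.6, and 7 were in introns of protein-coding genes.

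They rested mostly on replicate 2. Of the 12, 11 were in the top list of replicate 2 and 4 in that of replicate 1, and 2 were not in the replicate 1 list at all. All X regions leaned the same way, with 86% in the top list of replicate 2 and 64.4% in that of replicate 1. The whole replicate 1 list held 90.8% of them. From the top list of replicate 1, the difference did not pass 0.05 (2.75% and 0.946%, exact p = 0.0576). The highest, at 50.9, lay 23 bp from a tRNA gene in the promoter window of C28G1.2 and of sec-15, so that the sec-15 count above has this tRNA gene beside it. Others were intronic, nearest to sulp-3 (48.6), R04A9.1 (46.9) and the fibroblast growth factor gene egl-17 (32.8). CACGTG was in 1 of the 12, against 27.6% of all X regions. The sequence GGTTCGA, a form of the B box, an internal promoter element of tRNA genes, was counted at 6 of the 12. This counts exact matches only and does not show that the other tRNA genes lack a B box.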

How the data were processed

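The deposited lists hold regions with a summit and a signal score, whose scale is not stated. Per the file headers and descriptions, the authors called each replicate list and the pooled list against a control alignment and made the reproducible list by irreproducible discovery rate (IDR) from all 3. The sources used here do not give aligner, caller, thresholds or read depth. The ce10 lists were not used.

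Summits were annotated with Ensembl release 115 (19973 protein-coding genes) and sequence was read from RefSeq WBcel235, with 1-based coordinates. Distances run from the summit to the annotated gene 5′ end. A summit outside promoter windows was exonic, else intronic, else intergenic. Shares were compared with two-sided Fisher's exact tests, and summits with flanks (the left side unless it touched a listed region, then the right, with 2 autosomal regions lacking a free side) with exact McNemar tests. P-values were adjusted by Benjamini-Hochberg within each family, with a threshold of 0.05. Intervals are 95% Clopper-Pearson intervals for shares. Regions of 1 list are not independent replicates, so p-values and intervals cover counting over regions or genes only. Calculations used Python 3.11.15, numpy 2.4.6, pandas 2.3.3, scipy 1.17.1 and matplotlib 3.10.9, and the tests were checked on simulated data.

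The members, the 26 motifs and the 25 gene lists were chosen with earlier results of these data known. Genes are named by rule: the nearest 5′ end to the 20 X regions of highest signal, to the 3 of lowest signal and to the 3 nearest mdl-1, up to 5 genes per list, genes with 2 or more promoter summits and genes at the largest groups of summits. Names at the GCGCAGGG and tRNA regions were added after their values were seen. Alternatives used the top list of each replicate (as many of its highest regions as the reproducible list holds), the 507 regions of highest signal, other distances and windows, and promoter or other regions alone. A further 4, named where used, were chosen after seeing the data.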

Additional observations from a re-analysis of the deposited data

How the results depend on the processing

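Over 616 recomputed values, 576 kept their direction and their side of the threshold or stayed within 1.5 times a count, 21 no longer passed, 4 newly passed, 15 counts moved by more and 0 reversed. Of these, 238 belonged to the main results, among which 208 stayed the same, 13 no longer passed, 2 newly passed and 15 counts moved by more. Many of the rest were motifs that did not pass at the outset. Each replicate was left out by taking the other's top list. Neighbours within 10 kb then gave X shares of 36.5% to 39.4% (exact p from 0.265 to 0.453), signal above the median 54.1% to 54.8%, tRNA regions 2.75% to 4.56% and the 6-mer counts 0 to 0 (higher) and 0 to 2 (lower). Among the 507 regions of highest signal, GAGAGA (53.5% against 65.8%, exact adjusted p = 0.0961) and CTGCGTC (19.4% against 31.7%, exact adjusted p = 0.0756) no longer passed. Nor did neighbours within 10 kb (28.7% against 31.7%, exact p = 0.579), while signal above the median did (57.4%). There 1 motif stayed lower on X, 2 were lower at summits than in flanks, and 0 and 0 6-mers passed. Among promoter regions alone 0 motifs passed in either direction, with GAGAGA at 52% on X and 54.6% on autosomes, CTGCGTC at 11.8% and 23.3%, CTGCGTCTC at 7.84% and 20.5% and GCGCAGGG at 1.96% and 0% (exact adjusted p = 0.889, 0.145, 0.0668 and 0.382). That setting left 102 X regions, and 0 and 2 6-mers passed. Neighbours within 5 kb (31.2%) and 20 kb (47.6%) did not pass. Motif windows of 50 bp gave 5 and 1 6-mers, and 200 bp gave 3 lower on X. GAGAGA without CTGCGTC (48.8%) did not pass. The causes were not tested. GCGCAGGG passed in each replicate alone (4.71% to 4.98% of X regions), among the 507 (8.53%), outside promoter windows (6.76%) and against autosomal regions of the outer parts (0 of 394), the last chosen after seeing the data. Leaving out 20 or 100 kb around mdl-1 changed no call. No paired analysis was possible because there is 1 group of samples. Depth is unknown, and so is what it limits.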
